A study of Mus musculus with 18 samples.

Results

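The early effect of deleting the gene of serum response factor (SRF) was read from 6 arrays of mouse cardiac ventricle taken at day 8 after tamoxifen, 4 labelled SRFHKO and 2 labelled control, chosen by their titles among the 18 arrays of the series. All mice were males of strain CR7BL6 aged 10 weeks, and mice of both genotypes had received 0.7 mg tamoxifen on 3 days. The control mice were littermates described as SRF-flex2neo. The labels do not name the Cre line of the SRFHKO mice, so the cell type in which the deletion was driven is not given here, and no heart of day 8 had received phenylephrine (PE). The other 12 arrays, 3 per group, were of day 25: SRFHKO with PE, SRFHKO, control with PE and control, with PE given at 80 mg/kg/day. The titles call the arrays of a group biological replicates.

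SRF is a transcription factor that binds a short sequence element called the CArG box near genes of actin, of the contractile apparatus, of the cytoskeleton and of the immediate early response. Myocardin and the myocardin-related factors bind it as cofactors in muscle and link it to the pool of unpolymerised actin, while ternary complex factors link it to growth signals. In the heart it is known for its part in building and keeping the sarcomere and the cell's actin skeleton. The question of the comparison was which transcripts differ soon after the deletion.

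For every probe set of the Affymetrix array, the deposited intensity was scaled so that all arrays share 1 trimmed mean, and levels below are log2(scaled signal + 2), so that 1 unit is a doubling and changes of dim genes are understated. Genes were read from 1 probe set each, and 12610 genes passed the filter, whose limit was a level of 3.58. Before scaling the trimmed mean intensity was 133 ± 16.2 in the SRFHKO arrays (SD, n = 4) and 131 ± 9.19 in the control arrays (SD, n = 2), a difference of 1.84 (exact permutation test, two-sided p = 0.933; the 15 regroupings allow no p below 0.0667). The scaled signal of 18S ribosomal RNA was 705 to 1402 in SRFHKO and 2426 and 3069 in control arrays, and the Gapdh 3'/5' signal ratio was 0.850 to 0.936 in SRFHKO and 1.02 and 1.01 in control arrays, both without overlap. On the arrays of day 25 the highest values were 1896 for 18S and 0.945 for the Gapdh ratio. Both control arrays of day 8 thus lay above all other arrays of the series in both measures, control hearts of day 25 among them. The part of these differences in the results below was not tested. All 12 cardiomyocyte markers were measured, with a summed scaled signal of 82244 to 98683 in SRFHKO and 91342 to 106907 in control hearts. The 14 endothelial markers, all measured, summed to 9148 to 9588 in SRFHKO and 9070 to 9442 in control hearts, so both sets overlapped between the genotypes.

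The control hearts were unlike each other, and 1 of them stood apart from the rest of the series in a set of genes where it was high. They differed by over 1 log2 unit in 808 genes, against 611 to 721 genes for pairs of SRFHKO hearts. Over 1 log2 unit below all 17 other arrays, each control array had 26 genes and the SRFHKO arrays had 14 to 27, so control replicate 2 was not apart there. In 18 genes control replicate 2 lay over 1 log2 unit above all 17 other arrays, while the other 5 arrays of day 8 had 0 or 1 such gene each. These genes, picked out after their values were seen, included the matrix proteins Tnc, Col1a1 and Fn1, the protease inhibitor Timp1, the lectin Lgals3, the membrane glycoprotein Gpnmb of macrophages and the leukocyte integrin chain Itgb2. Tnc, tenascin C, had levels of 3.48 to 4.44 in SRFHKO hearts, against 2.93 and 8.32 in control hearts. Gpnmb had 3.19 to 5.31 in SRFHKO hearts, against 3.31 and 8.08 in control hearts. Timp1 had 4.47 to 5.94 in SRFHKO hearts, against 4.73 and 8.39 in control hearts. In each of the 3 the second control heart alone was high and the first lay within or below the SRFHKO range, so the value without each control array is given below where it moves a result of a gene or a list.

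Srf transcript did not differ past the threshold between the genotypes. Srf had levels of 8.00, 8.21, 7.95 and 7.65 in SRFHKO hearts, against 7.44 and 8.00 in control hearts, and the groups overlapped. The difference was 0.23 ± 0.20 (SE) for this probe set and 0.27 ± 0.20 for the other Srf probe set (limma adjusted p = 0.813 over genes for the first and 0.679 over probe sets for the second). No source used here says whether they read the part of the gene that was deleted, so they do not check the genotype labels.

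In all, 8 of 12610 genes passed an adjusted p of 0.05 (limma, Benjamini-Hochberg), which is 0.0634% of the genes tested. Of these 6 were higher in SRFHKO hearts (0.0476%) and 2 were lower (0.0159%). At an unadjusted p under 0.05, 555 genes were higher (4.4%) and 547 were lower (4.34%). All 4 SRFHKO hearts lay above both control hearts in 1179 genes (9.35%) and below both in 1148 (9.1%), together 18.5% of the genes. The median difference over all genes was -0.00.

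Nmrk2, nicotinamide riboside kinase 2, which makes the NAD precursor nicotinamide mononucleotide in muscle, was the call with the smallest p. Its levels were 8.86, 7.66, 7.69 and 9.53 in SRFHKO hearts, against 5.70 and 4.93 in control hearts. Every SRFHKO heart was above both controls, and the SRFHKO hearts were themselves spread over nearly as wide a range as the gap. Nmrk2 was 8.69-fold higher in SRFHKO hearts, a log2 difference of 3.12 ± 0.39 (SE, limma adjusted p = 0.00221). Leaving out control replicate 1 gave 3.50 (adjusted p = 0.00304), and leaving out control replicate 2 gave 2.73 (adjusted p = 0.0980). Of the other 18 measured genes of NAD synthesis and use, 0 passed, and the median of the list was -0.01, or -0.07 without control replicate 1 and -0.05 without control replicate 2. Nampt, which makes the same product from nicotinamide, had levels of 9.89, 10.37, 10.22 and 10.04 in SRFHKO hearts, against 10.57 and 10.40 in control hearts, a difference of -0.35 ± 0.16 (adjusted p = 0.547), and its other 2 probe sets differed by -0.15 and 0.43.

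Acta1 codes for the alpha-actin of skeletal muscle, long known as a target of SRF, and fell in SRFHKO hearts. Its levels were 8.31, 9.23, 8.74 and 8.91 in SRFHKO hearts, against 10.23 and 11.99 in control hearts. All SRFHKO hearts were below both controls, and the second control heart was the highest by far. Acta1 was 4.96-fold lower, with a log2 difference of -2.31 ± 0.38 (SE, limma adjusted p = 0.0196). Leaving out control replicate 1 gave -3.19 (adjusted p = 0.000946), and leaving out control replicate 2 gave -1.43 (adjusted p = 0.310). Of the 12 skeletal muscle markers on the list, 5 were measured and their summed scaled signal was 3938 to 4907 in SRFHKO and 4937 and 5401 in control hearts, without overlap. Most of that sum is Ckm, which heart muscle also expresses. Myh1, Myh2, Myh4, Tnnt3, Actn3, Tnnc2 and Pvalb were not measured above the filter, and the part of such cells in the Acta1 difference was not tested. In bulk tissue, fewer cells of a type and less RNA per cell cannot be told apart.

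The promoter windows below, from RefSeq on build GRCm38.p6, run 250 bases before to 50 after the annotated start and are printed 5' to 3' on the gene's strand, the minus strand for each. They are shown because Acta1 fell, Actc1 is its cardiac counterpart with a difference that did not pass, and Nmrk2 rose. Capitals mark a match to the CArG box consensus, the element SRF binds, which reads the same on both strands.
Acta1, chr8:123894726-123895025: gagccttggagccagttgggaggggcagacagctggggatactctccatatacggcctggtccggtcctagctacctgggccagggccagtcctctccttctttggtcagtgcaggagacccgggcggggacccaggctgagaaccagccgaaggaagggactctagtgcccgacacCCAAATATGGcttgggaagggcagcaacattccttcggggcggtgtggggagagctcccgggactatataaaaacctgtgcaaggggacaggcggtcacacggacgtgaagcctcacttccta
Actc1, chr2:114052826-114053125: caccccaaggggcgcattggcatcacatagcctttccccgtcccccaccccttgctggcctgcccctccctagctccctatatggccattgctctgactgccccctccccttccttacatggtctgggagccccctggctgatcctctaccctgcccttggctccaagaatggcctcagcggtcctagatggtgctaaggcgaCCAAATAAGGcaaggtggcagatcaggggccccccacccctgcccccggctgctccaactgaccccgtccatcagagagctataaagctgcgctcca
Nmrk2, chr10:81201988-81202287: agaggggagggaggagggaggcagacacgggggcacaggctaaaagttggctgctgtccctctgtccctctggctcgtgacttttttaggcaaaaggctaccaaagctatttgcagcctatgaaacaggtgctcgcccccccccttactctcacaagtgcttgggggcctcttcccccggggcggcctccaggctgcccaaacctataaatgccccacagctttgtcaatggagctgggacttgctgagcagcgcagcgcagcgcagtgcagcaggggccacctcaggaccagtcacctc
Acta1 held 1 match, beginning 73 bases before the start, Actc1 held 1 at 47 bases before it, and the Nmrk2 window held 0. The windows of Hacd1, the other fall, and of Acta2, which differed by -0.81, held 0, while that of Actg1, which differed by -0.15, held 1. The consensus was found in the windows of 488 of 27025 genes (1.81%) and of 161 of the 10127 genes tested here whose window was in the table (1.59%). Among genes lower in SRFHKO hearts at an unadjusted p under 0.05 it was 13 of 441 (2.95%), and among genes higher 6 of 452 (1.33%). Of the 8 genes past the threshold, 7 were in the table and 1, Acta1, held the box. A match is a run of letters and not a measured binding site, and no match says only that the letters are not in this window.

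Hacd1, an enzyme that removes water during elongation of long fatty acids and is known for a role in muscle, was the other fall. Its levels were 9.68, 9.46, 9.75 and 9.86 in SRFHKO hearts, against 10.58 and 10.61 in control hearts. The 2 control hearts were nearly alike and lay above all SRFHKO hearts. The difference was -0.90 ± 0.15 (SE, limma adjusted p = 0.0261), -0.92 without control replicate 1 and -0.89 without control replicate 2. The adjusted p was 0.0546 and 0.180 in these smaller comparisons. The second Hacd1 probe set differed by -0.64 ± 0.17. None of the other 9 measured members of the elongation list passed, and Hacd3 and Hacd4, of the same family, differed by -0.24 ± 0.12 and -0.30 ± 0.19. The other 2 Hacd3 probe sets were higher, by 0.13 and 0.92.

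Esr1, oestrogen receptor alpha, a nuclear receptor, had the widest difference of the 8. Its levels were 9.91, 6.18, 8.69 and 8.57 in SRFHKO hearts, against 3.16 and 2.96 in control hearts. The control hearts were both under the limit of the filter, and SRFHKO replicate 2 was well below the other 3 mutants. Esr1 was at least 27.1-fold higher in SRFHKO hearts, taking the controls at the limit (log2 difference 5.28 ± 0.81, limma adjusted p = 0.0119). Only 1 probe set showed it, since the other Esr1 probe set differed by -0.15 ± 0.37. As background, the Cre fusions that tamoxifen activates carry a part of an oestrogen receptor. Whether this probe set reads such a fusion was not tested. Of the 9 other measured genes of the oestrogen receptor list, 0 passed. Greb1, an oestrogen-induced gene, had levels of 3.99, 3.79, 4.18 and 2.27 in SRFHKO hearts and 1.65 and 3.56 in control hearts, which overlapped.

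The remaining 4 rises, Hspbap1, 2900093K20Rik, Zfp207 and Lsm6, share a pattern: the 2 control arrays of day 8 lay below all 16 other arrays of the series, control hearts of day 25 among them. Hspbap1, which codes for a protein that binds small heat shock proteins, had levels of 4.55, 4.96, 5.02 and 4.72 in SRFHKO hearts, against 2.89 and 2.41 in control hearts (difference 2.17 ± 0.31, at least 2.35-fold, adjusted p = 0.00842). The lowest of the other 16 arrays was at 4.55, and the probe set is of the _x_at kind, which can read related sequences. 2900093K20Rik, of which the role is not known here, had 4.55, 4.98, 5.07 and 5.05 in SRFHKO hearts, against 2.99 and 2.85 in control hearts (difference 1.99 ± 0.30, at least 2.52-fold, adjusted p = 0.0111).

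Zfp207, a zinc finger protein of the mitotic spindle that also takes part in splicing, had levels of 8.20, 8.30, 8.18 and 8.25 in SRFHKO hearts, against 7.42 and 6.89 in control hearts. The difference was 1.08 ± 0.18 (limma adjusted p = 0.0196). Its other 4 probe sets differed by 0.35, 0.01, 0.58 and 0.20. Lsm6, of the ring that binds the ends of U6 and of decaying messenger RNA, had 8.56, 8.18, 8.27 and 8.49 in SRFHKO hearts, against 7.71 and 7.55 in control hearts. The difference was 0.75 ± 0.13 (limma adjusted p = 0.0370), and the other 2 Lsm6 probe sets differed by -0.07 and 0.13. Both genes thus separated the groups by the brightest probe set, while the other probe sets gave smaller differences. For these 4 genes, a rise caused by the genotype cannot be told apart from control arrays that happened to be low.

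**Figure D1:**
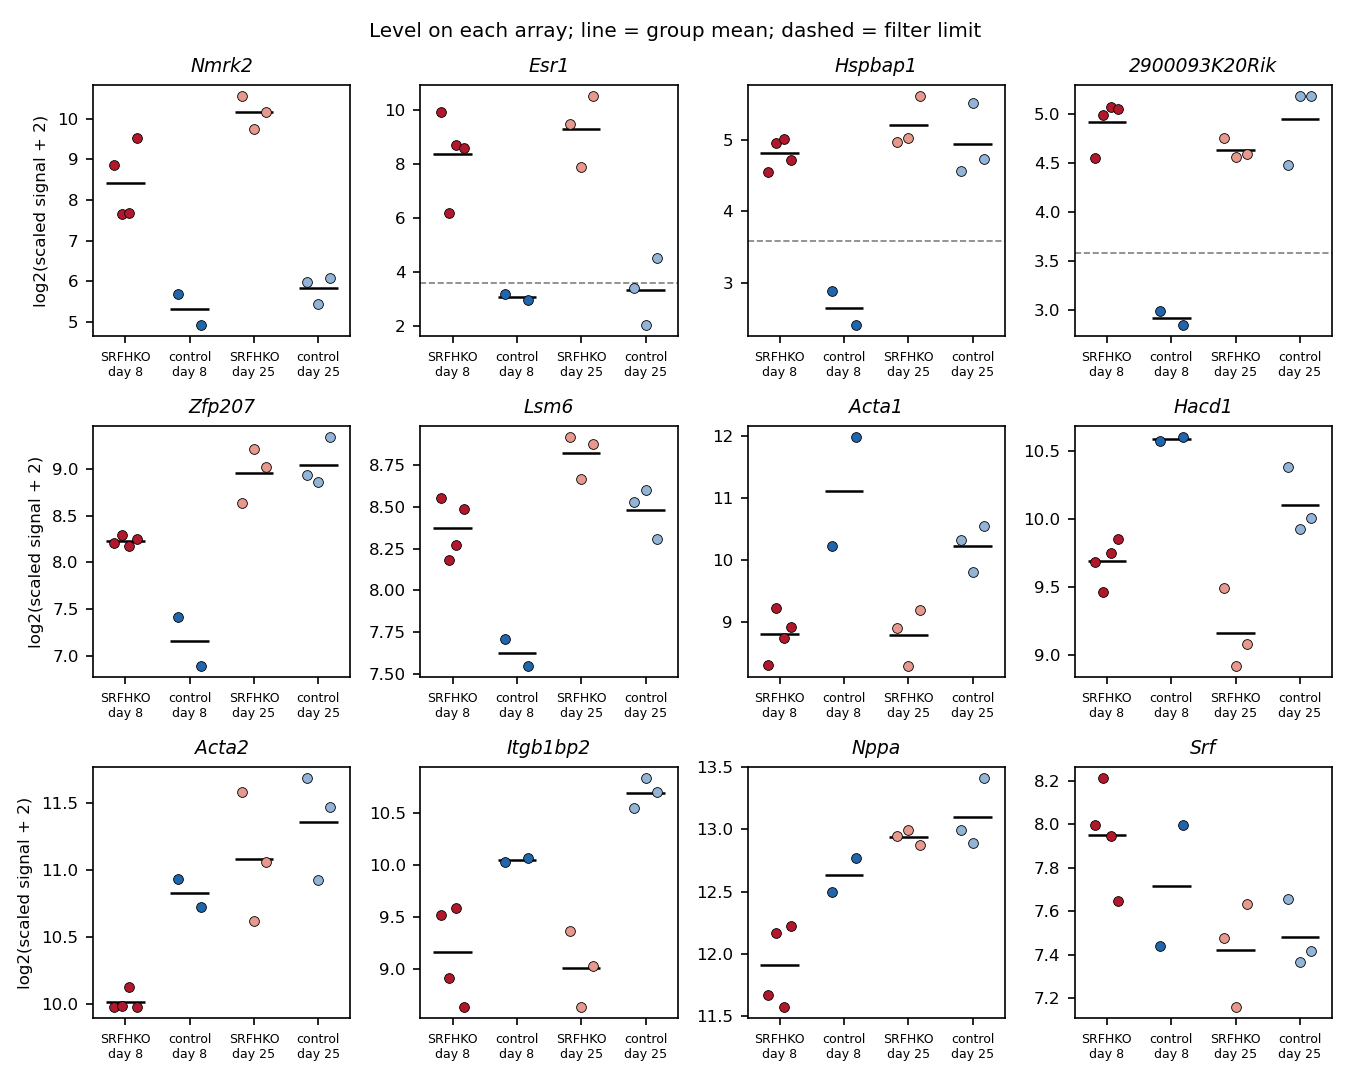
Level, as log2(scaled signal + 2), of the 8 genes past the threshold and of Acta2, Itgb1bp2, Nppa and Srf on each array of day 8 and of day 25 without PE, with SRFHKO left of control at each day; points are arrays, lines group means and the dashed line the filter limit of 3.58. Nmrk2, Esr1, Acta1, Hacd1, Itgb1bp2 and Lsm6 separate the genotypes at both days. In Hspbap1, 2900093K20Rik, Zfp207 and Lsm6 the 2 control arrays of day 8 lie below all other arrays.

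Below the threshold, 66 further genes were higher and 59 lower in SRFHKO hearts with no overlap and with the sign and an unadjusted p under 0.05 kept without either control array, and the 10 of each with the smallest p are described here. Pdlim7, a PDZ and LIM protein of the actin skeleton, had levels of 6.33, 6.38, 6.59 and 6.44 in SRFHKO hearts, against 7.58 and 7.42 in control hearts (difference -1.06 ± 0.22, limma adjusted p = 0.130). Its other 2 probe sets differed by -0.27 and 0.02. Ptges3l, a relative of the chaperone partner p23, had 8.28, 7.79, 8.27 and 7.29 in SRFHKO hearts, against 9.09 and 8.97 in control hearts (difference -1.13 ± 0.26, adjusted p = 0.169), and its second probe set differed by -0.98. Itgb1bp2, melusin, a muscle protein that binds the beta-1 integrin tail, was not among the 10 but is one of the core genes; it had 9.52, 8.92, 9.59 and 8.64 in SRFHKO hearts, against 10.03 and 10.07 in control hearts (difference -0.89 ± 0.22, adjusted p = 0.201). In these 3 genes the groups did not overlap and the 2 control hearts lay close to each other.

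The other 8 of the 10 lower genes ran between -2.07 and -0.46. They were AY036118 (adjusted p = 0.0657), the proteasome subunit Psmb3, the protease inhibitor Cstb, the translation factor Eif2d, the assembly factor of respiratory complex I Timmdc1, the aldo-keto reductase Akr1b8, Rwdd4a and 1700120C14Rik. AY036118 had levels of 9.25, 10.02, 9.49 and 9.77 in SRFHKO hearts, against 10.52 and 10.86 in control hearts. Its probe set passed when each probe set was tested alone (limma adjusted p = 0.0417 over probe sets). The 10 higher genes ran between 0.42 and 3.38. Coro6, a coronin, which is a family of actin-binding proteins, had 9.66, 9.82, 9.60 and 9.76 in SRFHKO hearts, against 9.05 and 9.32 in control hearts (difference 0.52 ± 0.11, adjusted p = 0.136). The second Coro6 probe set differed by 1.02 and passed when each probe set was tested alone (limma adjusted p = 0.0141 over probe sets). The ribosomal protein gene Rps9 had 11.20, 11.37, 11.16 and 11.15 in SRFHKO hearts, against 10.81 and 10.80 in control hearts. The others were the ceramide synthase Cers4, the cohesin regulator Pds5a, the Paf1 complex subunit Leo1, the heat shock factor binding protein Hsbp1, Insyn2a and the dim Mirg, Rmnd1 and Slc15a2, for which both controls were under that limit. Slc15a2, a peptide transporter, was at least 5.50-fold higher by the same bound, with 5.87, 6.24, 6.02 and 6.03 in SRFHKO hearts against 3.07 and 2.25 in control hearts, and did not pass (adjusted p = 0.136). Its other probe set differed by -0.98 ± 0.60. In Rps9, Hsbp1, Pds5a, Insyn2a, Mirg and Rmnd1 both control arrays of day 8 lay below all other arrays of the series. Among the lower genes, Eif2d and Rwdd4a had both of them above all other arrays. Of all genes higher without overlap, 23.3% had the controls of day 8 below all other arrays, and of those lower, 21.9% had them above.

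**Figure D2:**
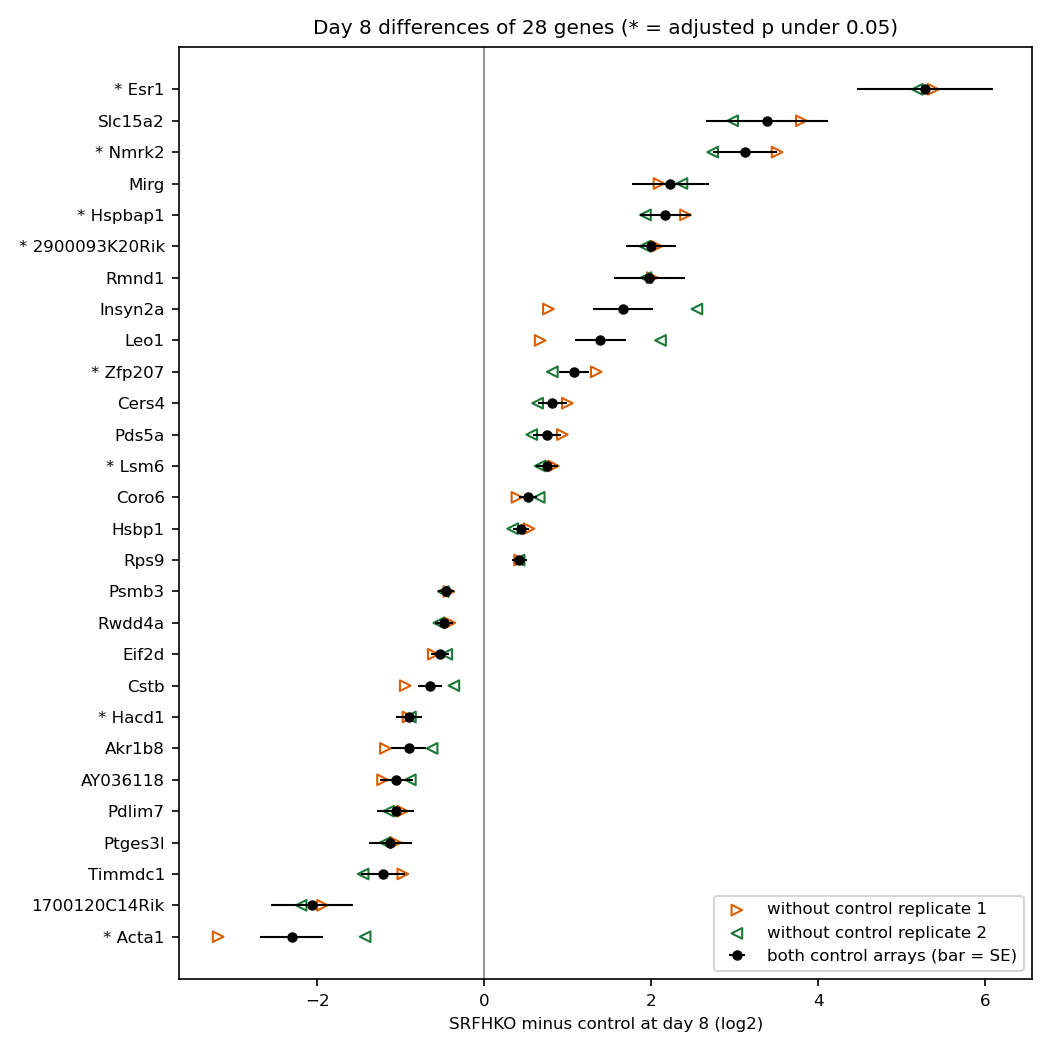
SRFHKO minus control at day 8 in log2 for the 8 genes past the threshold (asterisks) and the 10 higher and 10 lower genes below it; black points use both control arrays with the SE as bar, and open triangles leave out one control array. Acta1 moves most among the falls, between -3.19 and -1.43, and Leo1 and Insyn2a most among the rises, while Hacd1 and Pdlim7 stay close to their value with either control array.

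Of the actins, all 6 isoforms were measured, 1 fell past the threshold, Acta1 (0.0159% over all genes), and 5 did not pass. An unadjusted p under 0.05 was reached by 4, all lower (4.34% over all genes). In 3, all SRFHKO hearts lay below both controls (9.1% over all genes). The median difference of the 6 was -0.55, against -0.00 for all genes, and it was -0.51 without control replicate 1 and -0.63 without control replicate 2. Acta2, smooth muscle alpha-actin, had levels of 9.98, 9.98, 10.12 and 9.98 in SRFHKO hearts, against 10.93 and 10.72 in control hearts (difference -0.81 ± 0.21, limma adjusted p = 0.235). Actg2, smooth muscle gamma-actin, had 5.17, 5.27, 5.31 and 5.22 in SRFHKO hearts, against 6.05 and 6.17 in control hearts (difference -0.87 ± 0.25, adjusted p = 0.270). In both the SRFHKO hearts were nearly alike and lay well below the controls. Actc1, cardiac alpha-actin, had 12.82, 12.82, 12.93 and 13.05 in SRFHKO hearts, against 13.35 and 13.02 in control hearts, and overlapped (difference -0.28 ± 0.12, adjusted p = 0.481), and the difference was -0.12 without control replicate 1 and -0.45 without control replicate 2. The cytoplasmic actins Actb and Actg1 differed by -0.08 ± 0.11 and -0.15 ± 0.13, with overlap, but the second Actb probe set differed by -0.78 ± 0.23 (adjusted p = 0.139 over probe sets).

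Of the other genes known to depend on SRF, 28 actin-binding and smooth muscle genes were measured. Of these 0 passed in either direction. At an unadjusted p under 0.05, 3 were lower and 0 higher (4.34% and 4.4% over all genes), and the median was -0.05. Its sign changed with the control array used, with -0.12 without control replicate 1 and 0.05 without control replicate 2. Cnn2, calponin 2, had levels of 8.25, 8.24, 8.37 and 8.27 in SRFHKO hearts, against 8.64 and 8.98 in control hearts. Cnn2 differed by -0.53, or by -0.70 and -0.36 without control replicate 1 and 2. Vcl, vinculin, differed by 0.17 ± 0.12 at its brightest probe set and by 1.02 ± 0.25 at the other (adjusted p = 0.0884 over probe sets). Myh11, smooth muscle myosin, differed by 0.35 ± 0.27 and Tagln, transgelin, by 0.11 ± 0.30. The 14 measured genes of SRF, its cofactors and its cardiac partners had 0 calls and a median of 0.06, or 0.07 and 0.0067 without control replicate 1 and 2. Mef2a and Mef2c, factors that act with myocardin, differed by 0.24 ± 0.10 and -0.31 ± 0.12, each without overlap and with an adjusted p of 0.510 and 0.458. Without control replicate 2 Mef2a was at 0.13, without control replicate 1 Mef2c was at -0.16, and the other 4 Mef2c probe sets were higher, by 0.04 to 0.54. Of 23 immediate early genes 0 passed. Egr1, an early growth response factor, had 7.36, 8.28, 7.33 and 7.85 in SRFHKO hearts, against 7.32 and 9.38 in control hearts. Fos had 6.41, 7.68, 6.26 and 7.24 in SRFHKO hearts, against 5.25 and 7.96 in control hearts. In both, the first control heart lay below all SRFHKO hearts and the second above them.

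Among genes of the contractile and electrical machinery, 0 of 28 sarcomere and Z-disc genes, 0 of 18 calcium cycling genes and 0 of 16 ion channel genes passed, with medians of -0.09, -0.13 and 0.16. The sarcomere median was 0.02 without control replicate 1 and -0.14 without control replicate 2, so its sign changed with the control array used. The calcium median was -0.12 and -0.21 and the ion channel median 0.22 and 0.0038 in the same order. Of the 18 calcium cycling genes 4 lay below both controls in all SRFHKO hearts and 0 above both (9.1% and 9.35% over all genes). Scn4b, a sodium channel beta subunit, had levels of 4.34, 4.42, 4.32 and 4.21 in SRFHKO hearts, against 5.70 and 6.06 in control hearts (difference -1.56 ± 0.43, limma adjusted p = 0.260). Here the control hearts of day 8 lay above all 16 other arrays, whose highest was 5.06. Kcnip2, which codes for a partner of the fast outward potassium channel of early repolarisation, had 8.64, 9.05, 8.95 and 8.81 in SRFHKO hearts, against 9.52 and 9.32 in control hearts (difference -0.56 ± 0.27, adjusted p = 0.578), and its other probe set differed by 0.13. Kcnj11, the pore of the ATP-sensitive potassium channel, had 8.34, 8.65, 8.56 and 8.71 in SRFHKO hearts, against 8.07 and 7.88 in control hearts (difference 0.59 ± 0.18, adjusted p = 0.326). Titin, Ttn, the giant spring protein of the sarcomere, differed by -0.24 ± 0.11 at its brightest probe set, and its 5 other probe sets differed by -0.82, -0.64, -0.45, -0.19 and 0.25. The first of these passed when each probe set was tested alone (adjusted p = 0.0315).

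Of 16 fetal and stress genes, 2 passed (0.0634% over all genes), Nmrk2 and Acta1, in opposite directions. The natriuretic peptide Nppa, a marker of strained heart muscle, had levels of 11.66, 12.16, 11.57 and 12.23 in SRFHKO hearts, against 12.50 and 12.77 in control hearts, lower without overlap (difference -0.73 ± 0.17, limma adjusted p = 0.191). Nppb had 10.48, 11.34, 9.57 and 11.12 in SRFHKO hearts, against 11.48 and 11.23 in control hearts, with overlap. The 6 measured atrial markers summed to 3445 to 6916 in SRFHKO and 7241 and 7673 in control hearts, but most of that sum is Nppa itself. Their median difference was -0.53, or 0.06 without control replicate 1 and -0.85 without control replicate 2, and the median per heart overlapped between the groups, highest in SRFHKO replicate 4. Bmp10 was not measured above the filter. The atrial light chain Myl7 had 7.64, 6.97, 6.30 and 9.52 in SRFHKO hearts, against 8.84 and 7.61 in control hearts, so it overlapped, and the part of atrial tissue in the Nppa values was not tested. Myh7, the beta-myosin heavy chain of the fetal ventricle, averaged 11.95 ± 1.07 in SRFHKO hearts (SD, n = 4), the lowest at 10.75, against 11.89 and 11.94 in control hearts. The SRFHKO hearts, highest in replicates 2 and 4, lay on both sides of the controls, and the difference was 0.03 ± 0.40 (adjusted p = 0.992).

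Matrix genes were lower against the second control heart and much less so against the first. Of 40 measured members of the extracellular matrix list 0 passed. At an unadjusted p under 0.05, 12 were lower and 0 higher (4.34% and 4.4% over all genes), and the median was -0.32. It was -0.46 without control replicate 1 and -0.19 without control replicate 2. Fn1, fibronectin, had levels of 7.69, 7.42, 7.69 and 7.14 in SRFHKO hearts, against 7.61 and 10.02 in control hearts. Col1a1, a chain of type I collagen, had 8.63, 7.31, 7.87 and 7.87 in SRFHKO hearts, against 8.17 and 10.80 in control hearts. In both genes the first control heart lay within the SRFHKO range. Postn, periostin of activated fibroblasts, had 8.46, 7.46, 7.72 and 7.69 in SRFHKO hearts, against 8.31 and 9.94 in control hearts, again with overlap. The 12 fibroblast markers, all measured, summed to 12219.6 to 15444 in SRFHKO and 16502 and 19463 in control hearts, without overlap. Of the 12, 2 were lower without overlap (9.1% over all genes), and the median per heart was highest in SRFHKO replicate 1, above both controls. The median difference of the 12 was -0.30, or -0.12 and -0.28 without control replicate 1 and 2. Their part in the matrix values was not tested.

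Endoplasmic reticulum chaperones and ribosomal protein genes had median differences above 0, with no gene of either list past the threshold and the higher values mostly in SRFHKO replicates 2 and 4. Of 21 chaperone and unfolded protein genes 4 were higher and 0 lower at an unadjusted p under 0.05 (4.4% and 4.34% over all genes). Without overlap 1 was higher (9.35% over all genes). Their median was 0.40, but 0.09 without control replicate 1 and 0.63 without control replicate 2. By the median per heart, SRFHKO replicates 1 and 3 lay below control replicate 2. Manf, a secreted stress factor of the endoplasmic reticulum, had levels of 8.92, 10.59, 8.93 and 9.92 in SRFHKO hearts, against 7.89 and 9.17 in control hearts. Pdia3, a disulfide isomerase, had 9.04, 9.83, 8.95 and 9.78 in SRFHKO hearts, against 8.48 and 8.88 in control hearts. SRFHKO replicates 2 and 4 were the high ones in both, as in Myh7. Of 27 ribosomal protein genes 13 were higher and 0 lower at an unadjusted p under 0.05 (4.4% and 4.34% over all genes). Without overlap 9 were higher (9.35% over all genes), and the median was 0.19, or 0.27 and 0.10 without control replicate 1 and 2. By the median per heart, SRFHKO replicates 1 and 3 were level with control replicate 1. Rpl7 had 11.03, 11.22, 10.95 and 11.27 in SRFHKO hearts, against 10.83 and 10.68 in control hearts. In Rpl7, as in Rps9, Rps7 and Rpl27, both control arrays of day 8 lay below all other arrays of the series, control hearts of day 25 among them. Of 30 splicing and decay genes 2 passed, Zfp207 and Lsm6 (0.0634% over all genes). Without overlap 7 were higher and 1 lower (9.35% and 9.1% over all genes). The median was 0.06, or 0.07 and 0.12 without control replicate 1 and 2. Srsf6, a serine and arginine rich splicing factor, had 9.15, 9.05, 9.04 and 9.28 in SRFHKO hearts, against 8.71 and 8.73 in control hearts (difference 0.41 ± 0.15, adjusted p = 0.429), while its other 3 probe sets differed by -0.06 to 0.02. For Srsf6 too, both control arrays of day 8 lay below all other arrays of the series.

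No gene of the energy metabolism lists passed. Of 55 oxidative phosphorylation genes 0 passed. At an unadjusted p under 0.05, 7 were lower and 0 higher (4.34% and 4.4% over all genes). The median was -0.06, or 0.05 without control replicate 1 and -0.18 without control replicate 2. Ndufs7 and Ndufb7, subunits of complex I, differed by -0.35 ± 0.12 and -0.33 ± 0.12, each without overlap. Their other probe sets, with control means of 11.69 and 10.86 against 12.49 and 12.07, differed by only -0.03 and 0.05. The 28 fatty acid genes had a median of -0.00, the 21 genes of the TCA cycle -0.01 and the 11 of creatine kinase and phosphoryl transfer -0.00, with 0 calls in each. These values near 0 averaged opposite signs: without control replicate 1 they were 0.13, 0.07 and 0.05, and without control replicate 2 they were -0.12, -0.16 and -0.17. Ckm, muscle creatine kinase, had levels of 12.14, 11.91, 12.19 and 11.93 in SRFHKO hearts, against 12.33 and 12.20 in control hearts, a difference of -0.23 ± 0.23 (adjusted p = 0.855), and its dim second probe set differed by -1.10 ± 0.35. Of 18 circadian clock genes 0 passed, 4 were lower and 2 higher without overlap (9.1% and 9.35% over all genes). The median of the clock list was -0.17, or 0.02 without control replicate 1 and -0.27 without control replicate 2. Per2, a repressor of the clock, had 5.61, 5.96, 5.49 and 5.30 in SRFHKO hearts, against 6.43 and 6.41 in control hearts. Nr1d1, a repressor in the opposite arm of the clock, had 7.33, 7.39, 7.51 and 7.74 in SRFHKO hearts, against 6.96 and 7.04 in control hearts. Foxo3, a transcription factor of the fasting response, had 8.09, 8.58, 8.54 and 8.04 in SRFHKO hearts, against 9.03 and 9.09 in control hearts (difference -0.75 ± 0.25, adjusted p = 0.379).

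**Figure D3:**
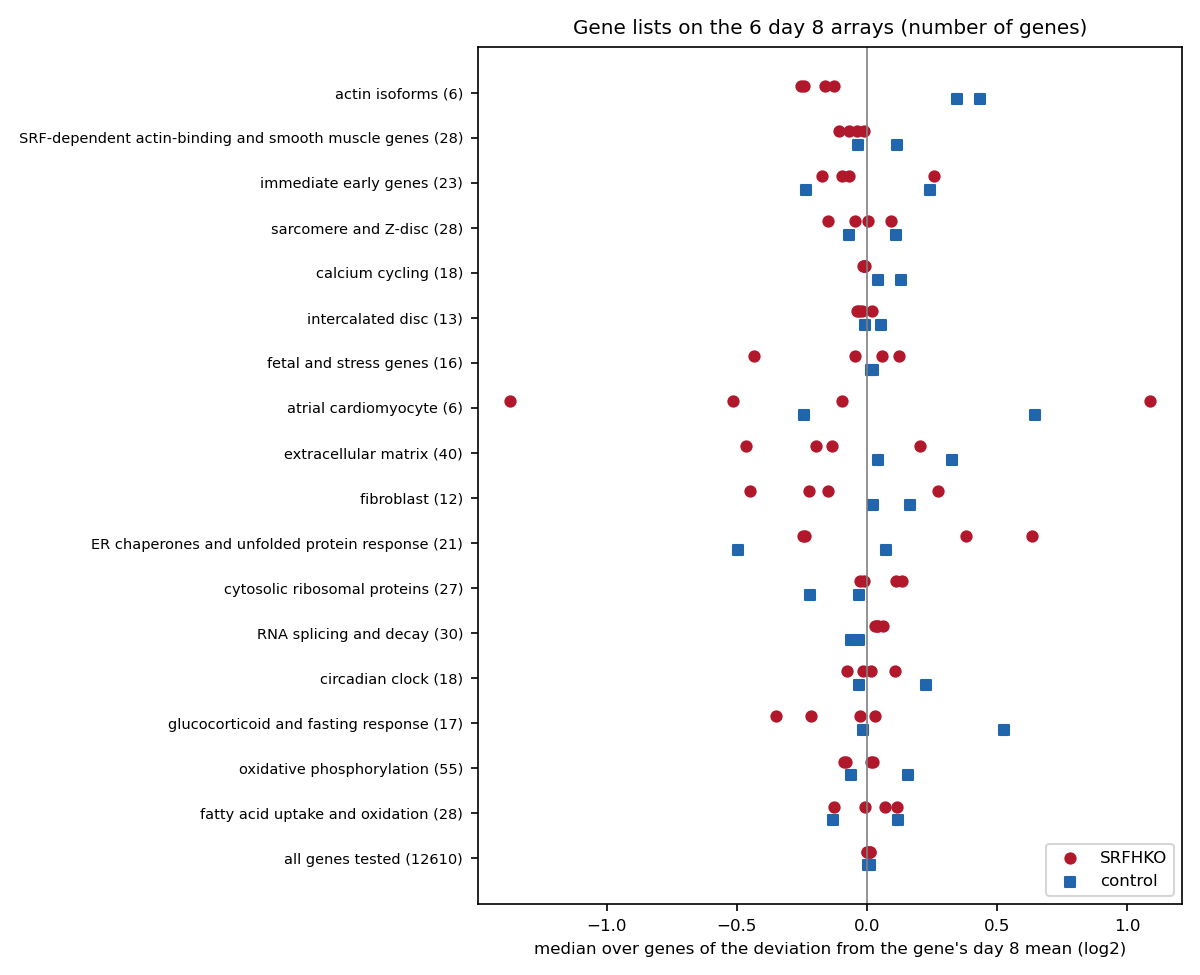
For 17 gene lists and all genes, the median over members of each gene's deviation from its mean over the 6 arrays of day 8, in log2, with 1 point per array and SRFHKO above control in each row. In actin isoforms all 4 SRFHKO hearts lie below both controls, in matrix genes the second control heart is highest at 0.33, and in chaperones SRFHKO replicates 2 and 4 are highest at 0.64 and 0.38.

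At day 25 without PE, 295 genes passed in the same fit (2.34%), 159 higher (1.26%) and 136 lower (1.08%). Of the 8 genes of day 8, 6 had the same sign at day 25 and 4 passed there: Nmrk2, Esr1, Acta1 and Hacd1. Over all genes 53.8% had the same sign at both days. The 2 comparisons share no array. Before scaling, the trimmed mean intensity was 110 to 148 on the arrays of day 8 and 46.6 to 83.5 on those of day 25 without PE, and the part of this in the differences between the days was not tested. Nmrk2 averaged 10.16 ± 0.41 in SRFHKO and 5.84 ± 0.34 in control hearts at day 25 (SD, n = 3 each). The difference was 4.32, against 3.12 at day 8, and the limma interaction of the 2 days had an unadjusted p of 0.0357 and an adjusted p of 0.406. Acta1 differed by -1.43 ± 0.36 at day 25 and Hacd1 by -0.94 ± 0.15, with unadjusted interaction p values of 0.110 and 0.840 (limma). Hspbap1, 2900093K20Rik, Zfp207 and Lsm6 differed by 0.27, -0.31, -0.09 and 0.34 at day 25, with adjusted p of 0.670, 0.595, 0.818 and 0.160. Among them only Lsm6 separated the genotypes at day 25, higher in all SRFHKO hearts, with an unadjusted p of 0.0145 (limma). Of the genes below the threshold at day 8, Pdlim7, Ptges3l and Itgb1bp2 passed at day 25 with differences of -1.26, -2.05 and -1.68. Others that passed there included Kcnip2, Kcnj11 and Ndufs7, at -1.87, 0.74 and -0.49. The 10 higher genes below the threshold had the same sign at day 25 in 4 cases, and the 10 lower genes in 7. With the same sign, 0 of the 10 higher and 2 of the 10 lower genes passed at day 25.

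The difference of the genotype effect between the days was tested itself, and 0 genes passed (0%), while 1407 had an unadjusted p under 0.05 (11.2%). The smallest adjusted p was 0.115, with the smallest unadjusted p for Ckm, which differed by -0.23 at day 8 and by -2.06 at day 25. Kcnip2 differed by -0.56 at day 8 and by -1.87 at day 25 (limma interaction, adjusted p = 0.197). Myh7 differed by 0.03 at day 8 and by 3.00 at day 25. Its means at day 25 were 12.45 ± 0.18 in SRFHKO and 9.45 ± 0.34 in control hearts (SD, n = 3 each), so the controls of day 25 lay below both controls of day 8, whose mean was 11.91. Scn4b differed by -1.56 at day 8 and by 0.37 at day 25, with overlap at day 25.

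**Figure D4:**
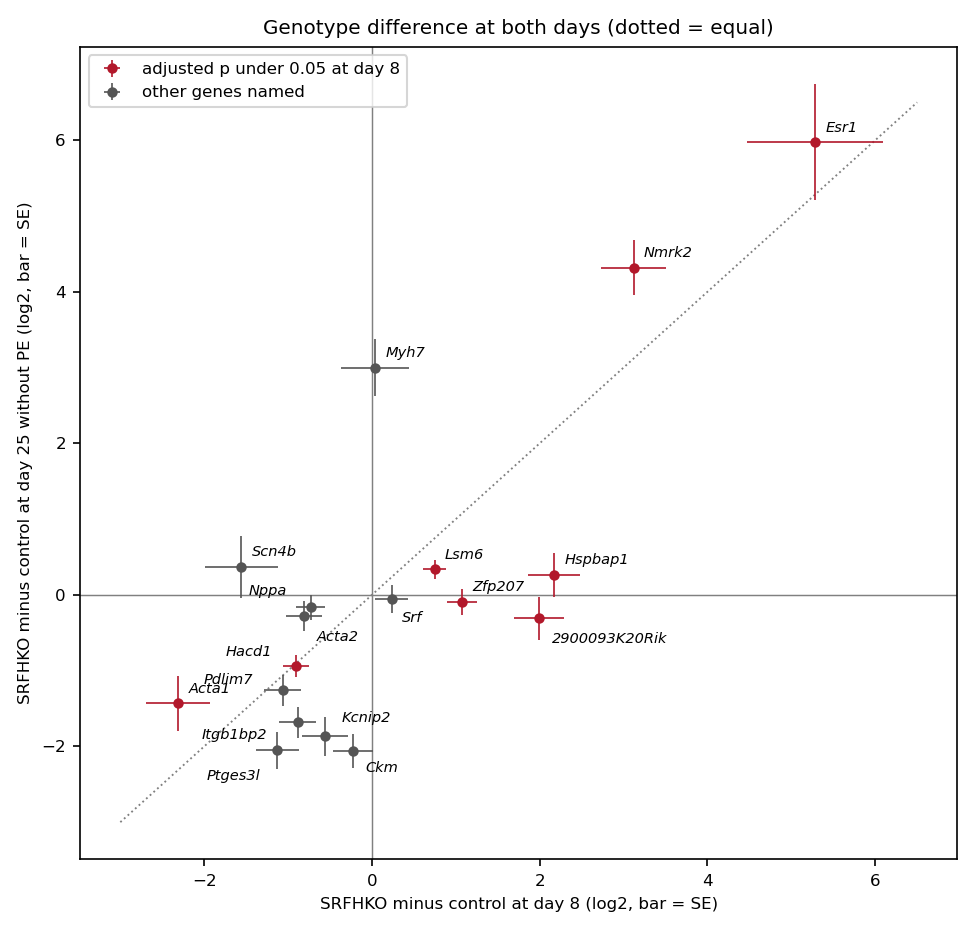
SRFHKO minus control at day 8 (horizontal) and at day 25 without PE (vertical), in log2 with SE bars, for the 8 genes past the threshold at day 8 (red) and 10 other named genes; the dotted line marks equal differences. Nmrk2 and Esr1 lie far up and right, and Acta1 and Hacd1 are lower at both days. Myh7 differs by 3.00 at day 25 alone, and the other 4 called genes lie between -0.31 and 0.34 on the vertical axis.

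How far the call set rests on single hearts was read by leaving out each array in turn. Without control replicate 1, 51 genes passed, 21 higher (0.167%) and 30 lower (0.238%), with 7 of the 8 among them. In most of these lower genes control replicate 2 lay above all 17 other arrays, and in most of the higher genes below all 17. Being called against this control heart alone favours such a position, so no conclusion is drawn from it. Over all genes tested, control replicate 2 lay above all 17 other arrays in 928 and below all 17 in 945. For the other arrays of day 8 these counts ran from 496 to 805 and from 492 to 912. Fn1, Col1a1 and Postn of the matrix list were among the genes lower without control replicate 1. That list was chosen with earlier results of these data known, and an excess of its members was not tested. Without control replicate 2, 3 genes passed, Leo1, Insyn2a and Heg1 (the last named after its values were seen), with 0 of the 8 among them. The counts without an SRFHKO heart ran from 2 to 10.

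**Figure D5:**
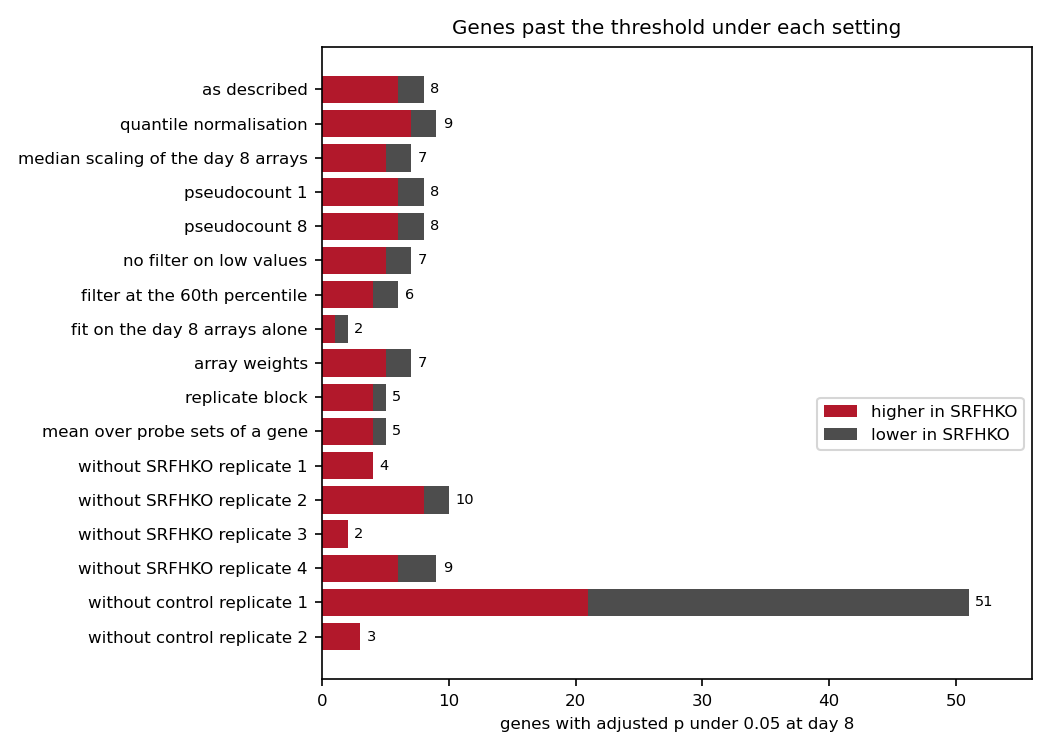
Number of genes with a limma adjusted p under 0.05 at day 8 under each setting, split into genes higher (red) and lower (grey) in SRFHKO. The count as described is 8, it lies between 6 and 9 under the scaling, pseudocount and filter settings, and it is 51 without control replicate 1 and 3 without control replicate 2.

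When each of the 27000 probe sets above the filter was tested alone, a setting added after the data were seen, 46 passed (0.17%), 40 higher and 6 lower in SRFHKO hearts. Of these 31 had a single gene name, and 22 of the 31 were not the brightest probe set of their gene. In 6 of these 22 genes, Coro6 and Ttn among them, the brightest probe set differed the same way at an unadjusted p under 0.05. In the other 16 the brightest probe set had an unadjusted p of 0.05 or above. Hnrnpu, which codes for a nuclear RNA-binding protein, is 1 of them: a dimmer probe set had levels of 5.92, 5.73, 5.92 and 6.11 in SRFHKO hearts, against 4.67 and 5.04 in control hearts, while the brightest differed by 0.03. Rbm39, a splicing factor, had 5.64, 5.75, 5.66 and 5.62 in SRFHKO hearts, against 4.67 and 4.76 in control hearts, and its brightest probe set differed by 0.11. For 31 of the 46 probe sets the control arrays of day 8 lay outside all 16 other arrays of the series, against 5.8% of all probe sets tested; being called at all favours such a position, so no test is drawn from it. Of the 71 named genes given in the text, 39 were read by more than 1 probe set, and 17 of these had another probe set of the opposite sign. Besides those given above, Cers4 was at 0.81 by its brightest probe set and between -0.51 and 0.52 by the others, Eif2d at -0.53 with 1 of its other 3 higher, Foxo3 at -0.75 and between -0.75 and 0.81, and Per2 at -0.83 and between 0.08 and 0.64. Dsp, desmoplakin, was at -0.22 and between -0.20 and 0.95, and Pdia3 at 0.72 and at -0.39 by its other probe set.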

How the data were processed

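Expression in mouse cardiac ventricles was read on Affymetrix arrays, 45101 probe sets each. Per the labels' protocols, RNA was extracted with Trizol and labelled as biotinylated cRNA. The deposited values are linear intensity per probe set, made with GCOS per the submitters' processing notes; its version and signal algorithm are not stated in these sources. Arrays differed in brightness, so all were brought to 1 level, a 2% trimmed mean of 90.6, then 2 was added and log2 taken. Probe sets below the 40th percentile of the mean were left out, which kept 27000. Platform annotation gave the gene names, which RefSeq (GRCm38.p6, also used for promoter windows) updated. Each gene was read from its brightest probe set, an _x_at one only where there was no other.

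Groups came from the titles. A limma 3.58.1 model (R 4.3.3, data.table version 1.17.8) with a mean per group over all 18 arrays, empirical Bayes with an intensity trend and Benjamini-Hochberg adjustment over 12610 genes gave the day 8, day 25 and interaction contrasts, so that all 6 groups share their spread. Folds with a dim group are bounds against the filter limit, which stands in for background. P values are two-sided, and errors are SE for differences and SD for levels. The number of arrays limits the precision. The steps were tested on simulated data.

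The genes named were all past the threshold, 10 rises and 10 falls below it without overlap, core genes and up to 4 members per list by smallest p; genes outside these are marked in the text. Members, lists and rules were chosen with earlier results of these data known. Replicate numbers were not used as pairs. Deviations of same-numbered SRFHKO and control hearts correlated at 0.0731 and 0.0785. The 2 control arrays deviate from their mean as mirror images, so these values cannot decide whether the arrays were paired.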

Additional observations from a re-analysis of the deposited data

Results flagged for a closer look

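In 3 of the 71 genes named by the rules that the text gives, 1 of the 4 SRFHKO hearts of day 8 stood apart from the other 3 by Dixon's criterion, which chance meets in about 1 of 20 groups. Acta2 had a level of 10.12 in SRFHKO replicate 3, against 9.98 in the other 3 SRFHKO hearts. Actb had 12.62 in SRFHKO replicate 4, against 12.18 to 12.20 in the others. The transcript 2900093K20Rik had 4.55 in SRFHKO replicate 1, against 4.98 to 5.07 in the others, and still lay above both control hearts there. The control group of 2 is too small for this criterion.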

How the results depend on the processing

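The count of 8 genes at day 8 lay between 6 and 9 under quantile normalisation, median scaling, the other pseudocounts, no filter, a stricter filter and array weights. It was 2 in a fit on the arrays of day 8 alone, with 0 of the 8 among them, 5 with the mean over the probe sets of a gene (4 shared), and 46 when each probe set was tested alone. With the replicate number as a block (replicate block), which the design does not call for, it was 5 (3 shared), and the count for the interaction stayed 0. Leaving out single arrays gave 2 to 51 genes at day 8 and 0 to 15 for the interaction, which had 0 calls in the other settings run. The interaction count was 15 without control replicate 1, 3 without control replicate 2, 2 without SRFHKO replicate 2, 3 without SRFHKO replicate 1 of day 25 and 1 without control replicate 1 of day 25. The cause of these moves was not tested. Nmrk2 passed in 14 of 16 settings, Esr1 in 12, Acta1 in 11, Zfp207 in 10, Hacd1 in 8 and Lsm6 in 7, while Hspbap1 passed in 12 of 15 and 2900093K20Rik in 11 of 15.

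Of the 71 genes named by the rules that the text gives, 10 changed sign under at least 1 setting. Myh7 was at -0.014 with median scaling, -0.14 with array weights and -0.12 with the replicate block, where Tagln was at -0.0089. With the mean over probe sets Mef2c was at 0.14, Dsp at 0.18 and Hacd3 at 0.27. With single arrays left out, Myh7 ran between -0.32 and 0.43, Greb1 between -0.0060 and 1.90, Srf between -0.045 and 0.51, Fos between -1.06 and 1.65, Tagln between -0.12 and 0.33, Egr1 between -1.67 and 0.39 and Actg1 between -0.30 and 0.012. The median of all genes lay between -0.050, with median scaling, and 0.03, with the mean over probe sets, under the settings run. With 2 control arrays at day 8, small differences are not detectable and signal near the filter limit is least precise.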

Other observations

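Several gene lists at day 8 had no gene past the threshold and are given here as values. Of 13 intercalated disc genes, 0 were higher and 5 lower in all SRFHKO hearts than in both control hearts (9.35% and 9.1% over all genes), among them Dsp, the desmosomal desmoplakin, with levels of 11.82, 11.75, 11.85 and 11.60 in SRFHKO hearts and 12.05 and 11.90 in control hearts; the median of the list was 0.0055, or 0.03 and -0.05 without control replicate 1 and 2. Of 17 glucocorticoid and fasting response genes, 4 were lower and 0 higher at an unadjusted p under 0.05 (4.34% and 4.4% over all genes). Their median was -0.42, or -0.73 without control replicate 1 and -0.22 without control replicate 2. Mt1, a metallothionein that binds zinc, had levels of 10.96, 11.46, 11.22 and 11.21 in SRFHKO hearts, against 11.57 and 11.94 in control hearts. Of 21 interferon response genes 0 passed at day 8, with a median of -0.04 (0.07 and -0.12 without control replicate 1 and 2). At day 25 without PE 7 of these were lower past the threshold (1.08% over all genes). Of 17 cytosolic heat shock genes 0 passed and the median was 0.00 (0.12 and 0.07 without control replicate 1 and 2); Hspa8, a constitutive chaperone, had levels of 10.62, 10.57, 10.28 and 10.79 in SRFHKO hearts, against 10.05 and 9.98 in control hearts, without overlap. The 15 measured macrophage and monocyte markers had a median of -0.21, or -0.36 without control replicate 1 and -0.05 without control replicate 2, with a summed scaled signal of 3744 to 5125 in SRFHKO hearts and 4193 and 5550 in control hearts, which overlapped. The 11 smooth muscle and pericyte markers, which include Acta2, summed to 11139.9 to 13223 in SRFHKO hearts and 13126 and 14624 in control hearts, also with overlap.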
